A study of Mus musculus with 7 samples.

Results

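The 6 miRNAs described here are both arms of the clustered hairpins miR-191 and miR-425 (mmu-miR-191-5p, mmu-miR-191-3p, mmu-miR-425-5p and mmu-miR-425-3p) and the broadly expressed pair mmu-miR-103-3p and mmu-miR-107-3p; the species prefix is left out from here on. They were taken by name, and occupy 7 of the 1078 rows of the deposited table. They are 6 of 950 miRNAs once each name was counted at 1 locus and 9 names with counts almost equal to another's were merged. All of them had counts in each Ago2 library. The series sequenced small RNAs recovered by anti-Flag pulldown from embryonic stem cells of the mouse in an Argonaute-null background, so that the Flag-tagged Ago2 supplied to the cells was the one Argonaute present. The supplied Ago2 was K566A, Q548A, R792A_C793A, GKT_GKGT, PGKTP_AAAAA or wild type, and an empty control was processed in parallel. Each of these 7 groups is 1 library, so no difference given here has a replicate check, no p-value is given, and each comparison is between single libraries.

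Argonaute proteins take up a short RNA duplex, keep 1 strand as the guide and discard the other. The MID domain holds the first base of the guide, and the K566A and Q548A labels name changes in that domain, as do GKT_GKGT and PGKTP_AAAAA, which alter a loop that lies against the first base. R792A_C793A alters neighbouring residues of PIWI, the domain that contains the slicer site. The 5p and 3p arms of a hairpin are the opposite strands of such a duplex. Their ratio in an Ago2 pulldown therefore records which strand was kept, together with how stable and how well cloned each strand is. miR-191 and miR-425 are processed from a common precursor transcript and are found in most tissues, and miR-191-5p is widely used as a reference miRNA. miR-103 and miR-107 lie in introns of pantothenate kinase genes and are known as repressors of Dicer, the enzyme that makes miRNA duplexes, and as modulators of insulin sensitivity.

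The mature sequences (RefSeq, build GRCm38.p6) are shown because the members differ in their first base, the base that the MID domain contacts, and because 2 of them are almost the same molecule. The seed, bases 2 to 8, is in capitals.
miR-191-5p: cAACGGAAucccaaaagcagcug
miR-191-3p: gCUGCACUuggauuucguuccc
miR-425-5p: aAUGACACgaucacucccguuga
miR-425-3p: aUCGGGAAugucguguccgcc
miR-103-3p: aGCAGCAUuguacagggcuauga
miR-107-3p: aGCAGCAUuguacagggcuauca
miR-16-5p: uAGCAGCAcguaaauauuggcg
miR-191-5p begins with C, miR-191-3p with G, and the other 4 members with A. miR-103-3p and miR-107-3p share 22 of 23 bases and differ by G22C, counted from 1 at the 5′ end with the miR-103-3p base first. A read that stops before base 22 cannot be assigned to either. No source used here says how the authors treated such reads, so the split between these 2 miRNAs is uncertain. miR-16-5p, no member, is shown because it carries the AGCAGC of miR-103-3p and miR-107-3p starting at base 2 instead of base 1, which gives it a different seed.

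In the 2 hairpins below, from the same reference, the annotated 5p and 3p arms are in capitals, in that order, since the arm ratios of these hairpins are described further on.
Mir191: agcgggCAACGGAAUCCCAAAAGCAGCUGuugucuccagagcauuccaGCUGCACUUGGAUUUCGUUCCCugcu
Mir425: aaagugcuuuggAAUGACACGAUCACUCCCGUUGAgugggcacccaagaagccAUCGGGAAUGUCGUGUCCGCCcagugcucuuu
In the deposited table (mm9) the arms of miR-191 span chr9:108470656-108470719 and those of miR-425 span chr9:108471120-108471181, with 464 nt between the starts of their 5p arms. RefSeq places both on the plus strand, and in GENCODE M21 both overlap an exon of the long noncoding RNA 4833445I07Rik on that strand. miR-103-3p has 2 loci, chr11:35595949-35595971 and chr2:131113839-131113861 (mm9), which lie in Pank3 and Pank2 on the same strand as those genes and outside their annotated exons. miR-107-3p, at chr19:34895190-34895212 (mm9), lies likewise in Pank1. The counts of miR-103-3p at its 2 loci differed by at most 2 in any library, so the miRNA was counted once and its 2 genes cannot be told apart.

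The 6 Ago2 libraries held between 14914048 counts (K566A) and 94842507 counts (wild type), and the empty control held 33461. Levels are given as counts per 1000000 of the library's total (CPM), with exact Poisson 95% intervals where an interval is given; these and all other intervals cover counting error only. A single miRNA, miR-292-5p, took 21.7% of the K566A counts but 57.3% to 70.5% of those of the other Ago2 libraries, so CPM in K566A is not on the same footing as in the rest. The 12 stem cell markers, miRNAs of the miR-290 and miR-302 clusters, all had counts in each Ago2 library. They summed to 59.1% of counts in K566A, 72.2% to 78.9% in the other 4 mutants and 76.0% in wild type. miR-292-5p is 1 of the 12, so its lower share in K566A enters that sum. The 10 markers with a mean of 10 CPM or more had a median log2 ratio to wild type of 1.52 in K566A. The median of all miRNAs at that level was 0.91. In GKT_GKGT those 10 markers had a median of -0.99, against -0.29 for all. In Q548A, R792A_C793A and PGKTP_AAAAA their medians were 0.045, 0.43 and -0.44, against 0.069, 0.43 and -0.55 for all. The 6 fibroblast markers summed to 4608 CPM in K566A, 618 (PGKTP_AAAAA) to 1275 CPM in the other mutants and 1093 CPM in wild type. miR-143-3p made up most of these sums, at 3968 CPM in K566A, 446 in PGKTP_AAAAA and 995 in wild type. The 3 fibroblast markers with a mean of 10 CPM or more had a median log2 ratio of 1.07 in PGKTP_AAAAA. The median of all miRNAs at that level was -0.55 there. Of 7 markers of differentiated tissues found, 6 had counts in the Ago2 libraries and 1, miR-223-3p of blood cells, was at 0 in all. They summed to 1940 CPM in K566A, 284 to 534 CPM in the other mutants and 249 CPM in wild type. The part of these differences in the results below was not tested.

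miR-191-5p was by far the most abundant member. It stood at 12979 CPM in K566A, 16183 in R792A_C793A, 8224 in Q548A, 8505 in GKT_GKGT and 9293 in PGKTP_AAAAA, against 8041 CPM in wild type. It was among the 12 most abundant miRNAs in every Ago2 library, ranking 8th to 12th, and its highest level was 2.01 times its lowest, the smallest span of the 6. Each neighbouring pair in the order of its levels differed beyond counting error, though the step from Q548A to wild type was 1.02-fold.

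miR-191-3p, the opposite strand of that duplex, stood at 12.8 CPM in K566A, 16.5 in R792A_C793A, 48.0 in Q548A, 18.6 in GKT_GKGT and 8.99 in PGKTP_AAAAA, against 26.0 CPM in wild type. Q548A was the one mutant library with more of it than wild type. miR-425-5p, which starts 464 nt further along, stood at 48.3 CPM in K566A, 145 in R792A_C793A, 105.7 in Q548A, 48.7 in GKT_GKGT and 33.6 in PGKTP_AAAAA, against 96.7 CPM in wild type. K566A and GKT_GKGT could not be separated for this miRNA (ratio of GKT_GKGT to K566A 1.01, 95% interval 0.927 to 1.1). miR-425-3p was the least abundant member, at 2.28 CPM in K566A (34 counts), 11.5 in R792A_C793A, 11.1 in Q548A, 10.8 in GKT_GKGT and 2.25 in PGKTP_AAAAA (56 counts), against 12.7 CPM in wild type. Its levels fell into a low pair, K566A and PGKTP_AAAAA, which did not differ from each other beyond counting error, and a higher group of the other 4 libraries.

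miR-103-3p stood at 1609 CPM in K566A, 1763 in R792A_C793A, 1394 in Q548A, 846 in GKT_GKGT and 461 in PGKTP_AAAAA, against 1289 CPM in wild type. miR-107-3p stood at 141 CPM in K566A, 190 in R792A_C793A, 134 in Q548A, 65.5 in GKT_GKGT and 43.2 in PGKTP_AAAAA, against 136 CPM in wild type. For both, the loop mutants GKT_GKGT and PGKTP_AAAAA were below wild type and R792A_C793A was highest. The levels of miR-107-3p in K566A and in Q548A could not be told from wild type beyond counting error. The other arms of these hairpins were almost unseen: miR-103-1-5p had 0 counts in every library, miR-103-2-5p had at most 5 and miR-107-5p at most 2.

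**Figure D1:**
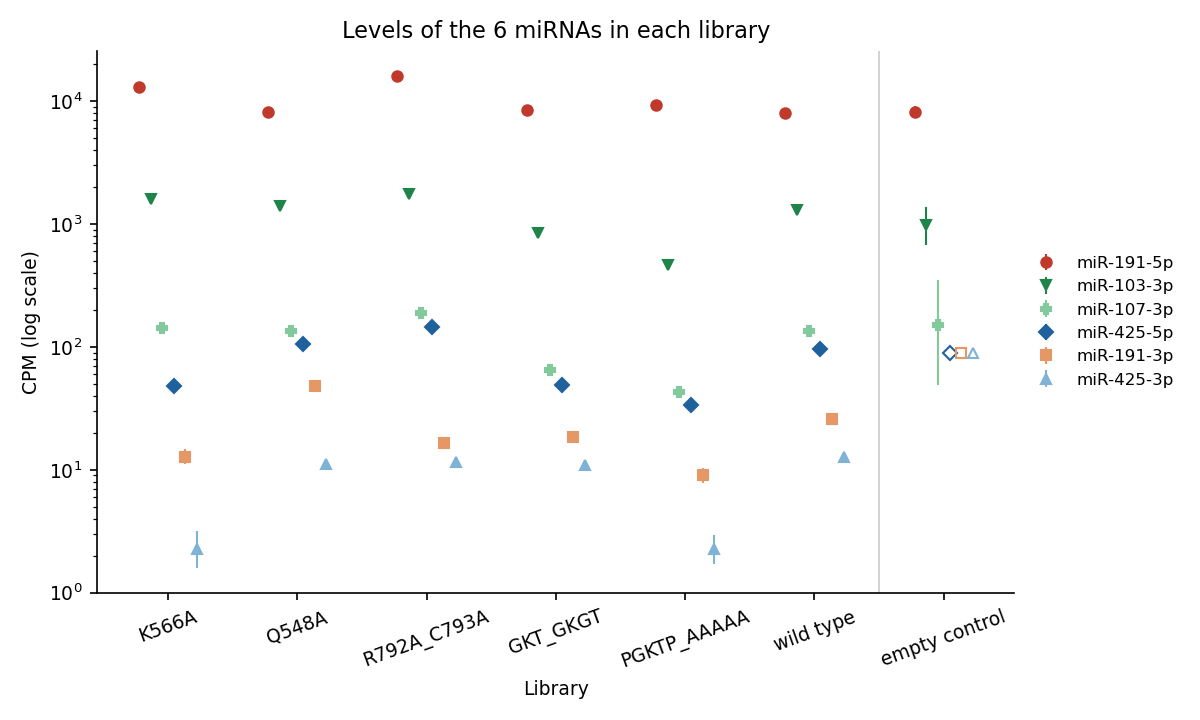
Level of each of the 6 miRNAs (CPM, log axis) in the 7 libraries, with exact Poisson 95% intervals as bars; open symbols mark miRNAs with 0 counts in the empty control, drawn at the 3 counts that a 0 allows (89.7 CPM). miR-191-5p lies between 8041 and 16183 CPM in the Ago2 libraries, while every other member, A-first or G-first, is lowest in PGKTP_AAAAA. For miR-425-3p that library did not differ from K566A beyond counting error.

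Ratios between members in a library do not depend on how libraries are scaled, and those of the neighbours miR-191-5p and miR-425-5p come first. Counts of miR-191-5p over miR-425-5p were 268 in K566A (95% interval 249.5 to 289), 112 in R792A_C793A (109 to 114), 77.8 in Q548A (76.3 to 79.4), 175 in GKT_GKGT (168 to 182) and 277 in PGKTP_AAAAA (259 to 296), against 83.1 in wild type (81.4 to 84.8). K566A and PGKTP_AAAAA thus stood highest, with intervals that overlap each other, and Q548A stood just below wild type. A change was called when the 95% interval of the odds ratio against wild type lay wholly past 2-fold. By that rule the ratio was higher than in wild type in K566A (3.23-fold, 2.99 to 3.49), GKT_GKGT (2.10-fold, 2.01 to 2.20) and PGKTP_AAAAA (3.33-fold, 3.10 to 3.57). It was not called in Q548A (0.936-fold) or R792A_C793A (1.34-fold). These 5 comparisons share the wild-type library. How often the ratio of 2 other miRNAs changes as much was not tested, here or for the other ratios between members. By level, 47.5% of all tested miRNAs were called higher and 19.6% lower in K566A. In PGKTP_AAAAA these shares were 7.12% and 33.5%, and in GKT_GKGT 11.0% and 11.9%.

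The 3p arms of the miR-191 and miR-425 hairpins did not repeat the order of the 5p arms. Counts of miR-191-3p over miR-425-3p were 5.62 in K566A (3.88 to 8.35), 1.43 in R792A_C793A (1.30 to 1.59), 4.31 in Q548A (4.03 to 4.62), 1.72 in GKT_GKGT (1.54 to 1.91) and 4.0 in PGKTP_AAAAA (2.97 to 5.46), against 2.04 in wild type (1.91 to 2.19). None of the 5 passed the 2-fold rule. Q548A, near wild type for the 5p arms, was 2.11-fold above it for the 3p arms (1.92 to 2.32), and GKT_GKGT, called higher for the 5p arms, was 0.839-fold (0.739 to 0.952). This pair of arms was added after the values had been seen.

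Within the miR-191 hairpin the 3p strand was a very small part of the counts in every library. Its share was 0.0986% in K566A (Wilson 95% interval 0.0856 to 0.114), 0.102% in R792A_C793A (0.0955 to 0.109), 0.580% in Q548A (0.564 to 0.597), 0.218% in GKT_GKGT (0.204 to 0.233) and 0.0966% in PGKTP_AAAAA (0.0848 to 0.110), against 0.323% in wild type (0.310 to 0.336). K566A, R792A_C793A and PGKTP_AAAAA formed a low group with overlapping intervals, GKT_GKGT lay between them and wild type, and Q548A lay above. The odds of 5p over 3p were called higher than in wild type in K566A (log2 change 1.71, 95% interval 1.5 to 1.93), R792A_C793A (1.67, 1.56 to 1.78) and PGKTP_AAAAA (1.74, 1.54 to 1.95). Among all 404 hairpins tested the share called in that direction was 18.8% in K566A, 11.6% in R792A_C793A and 10.6% in PGKTP_AAAAA. The share called lower was 19.3%, 8.66% and 14.1% in that order. A hairpin entered the 404 with a sum of 100 counts over the Ago2 libraries, and low counts give wide intervals that are harder to call. GKT_GKGT (0.57, 0.46 to 0.68) and Q548A (-0.85, -0.92 to -0.78) were not called; 11.1% of hairpins were called higher and 18.1% lower in GKT_GKGT, and 6.19% higher and 2.97% lower in Q548A.

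In the miR-425 hairpin, of which both arms begin with A, the 3p share was larger and moved differently. It was 4.50% in K566A (3.24 to 6.23), 7.36% in R792A_C793A (6.83 to 7.93), 9.53% in Q548A (9.0 to 10.1), 18.2% in GKT_GKGT (16.8 to 19.6) and 6.27% in PGKTP_AAAAA (4.86 to 8.06), against 11.6% in wild type (11.0 to 12.3). GKT_GKGT was the one library with a larger 3p share than wild type. None of the 5 changes passed the 2-fold rule: the log2 changes of 5p over 3p were 1.46 in K566A (0.97 to 2.03), 0.73 in R792A_C793A (0.58 to 0.87), 0.32 in Q548A (0.19 to 0.45), -0.76 in GKT_GKGT (-0.92 to -0.60) and 0.96 in PGKTP_AAAAA (0.57 to 1.40). In Q548A and GKT_GKGT the changes of miR-191 and miR-425 thus had opposite signs, though none of these passed the 2-fold rule. In K566A, R792A_C793A and PGKTP_AAAAA both hairpins lay towards the 5p arm relative to wild type. Over all hairpins the median log2 change of 5p over 3p was -0.040 in K566A, 0.13 in R792A_C793A, 0.20 in Q548A, -0.34 in GKT_GKGT and -0.057 in PGKTP_AAAAA.

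Hairpins with the same first bases as miR-191 were few. In the other 5 hairpins with a C-first 5p arm and a G-first 3p arm, the median log2 change of 5p over 3p was 2.96 in K566A, 2.21 in R792A_C793A, -0.035 in Q548A, 1.16 in GKT_GKGT and 0.90 in PGKTP_AAAAA. These 5 ranged from -2.14 to 4.56 in K566A, from -0.25 to 3.90 in R792A_C793A and from 0.19 to 2.62 in PGKTP_AAAAA, and miR-191, at 1.71, 1.67 and 1.74 in that order, lay within each range. They ranged from 0.97 to 1.38 in GKT_GKGT, above miR-191 at 0.57, and from -0.60 to 0.51 in Q548A, above miR-191 at -0.85. In the other 27 hairpins with both arms A-first, as in miR-425, the median was 0.028 in K566A, -0.26 in R792A_C793A, -0.21 in Q548A, -0.33 in GKT_GKGT and -0.35 in PGKTP_AAAAA, with single hairpins from -4.87 to 4.14 in the last. miR-425 lay within the range of those 27 in each mutant.

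miR-103-3p and miR-107-3p, which share a seed and come from different chromosomes, kept a nearly fixed ratio. Counts of miR-103-3p over miR-107-3p were 11.4 in K566A (10.9 to 11.9), 9.29 in R792A_C793A (9.10 to 9.48), 10.4 in Q548A (10.2 to 10.6), 12.9 in GKT_GKGT (12.5 to 13.4) and 10.7 in PGKTP_AAAAA (10.04 to 11.4), against 9.50 in wild type (9.33 to 9.68). GKT_GKGT was furthest from wild type, at 1.36-fold (1.31 to 1.42), and R792A_C793A was not separated from it (0.977-fold, 0.951 to 1.004). None passed the 2-fold rule.

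Set against miR-103-3p, miR-191-5p was highest in PGKTP_AAAAA. Counts of miR-191-5p over miR-103-3p were 8.07 in K566A, 9.18 in R792A_C793A, 5.90 in Q548A, 10.1 in GKT_GKGT and 20.1 in PGKTP_AAAAA, against 6.24 in wild type. The change was called in PGKTP_AAAAA (3.23-fold, 3.17 to 3.29), and not in GKT_GKGT (1.61-fold, 1.59 to 1.63), R792A_C793A (1.47-fold), K566A (1.29-fold) or Q548A (0.946-fold). K566A, which resembled PGKTP_AAAAA in the ratio of miR-191-5p to miR-425-5p, lay near the other mutants here. miR-425-5p and miR-103-3p, both A-first, thus differed from each other in K566A.

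**Figure D2:**
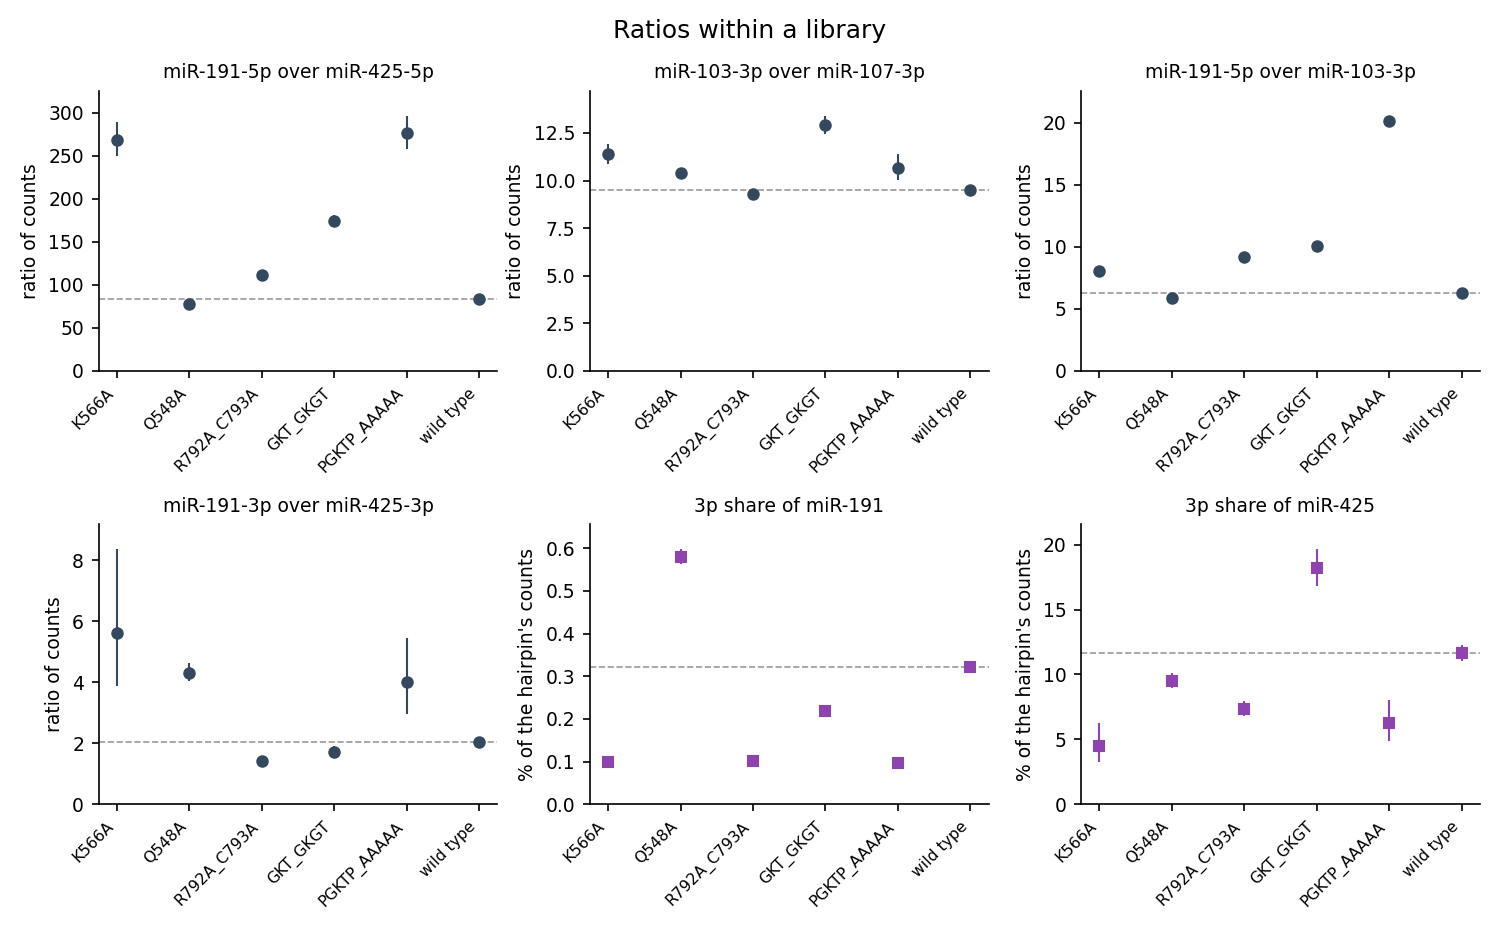
Ratios of counts between members, and the 3p share of the miR-191 and miR-425 hairpins (% of the hairpin's counts), in the 6 Ago2 libraries; bars are 95% intervals (exact for ratios, Wilson for shares) and the dashed line is the wild-type value. miR-191-5p over miR-425-5p reaches 268 in K566A and 277 in PGKTP_AAAAA against 83.1 in wild type, while miR-103-3p over miR-107-3p stays between 9.29 and 12.9.

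The calls on levels against wild type depended on the scaling for the members that passed the filter on low levels. Of the 6 members, 5 passed the filter, a mean level of 10 CPM or more in the Ago2 libraries, as did 337 miRNAs in all, and miR-425-3p did not. In PGKTP_AAAAA 4 of the 5 were lower, namely miR-107-3p (log2 ratio -1.65, 95% interval -1.74 to -1.56), miR-191-3p (-1.53, -1.74 to -1.34), miR-425-5p (-1.53, -1.63 to -1.42) and miR-103-3p (-1.48, -1.51 to -1.46), while miR-191-5p stood at 0.21. In that library 33.5% of all tested miRNAs were called lower and 7.12% higher, and the median of all was -0.55. With median-of-ratios scaling 0 of these 4 were called, and with TMM scaling 2, miR-103-3p and miR-107-3p; each stayed below wild type.

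In R792A_C793A the call was miR-191-5p, higher at 2.01-fold (log2 ratio 1.01, 95% interval 1.005 to 1.013), in a library in which 15.7% of all tested miRNAs were called higher and 6.82% lower, and the median was 0.43. It stood at the edge of the rule and was not called under the 3 other scalings, which gave log2 ratios between 0.65 and 0.78. The other tested members were at 0.58 (miR-425-5p), 0.48 (miR-107-3p), 0.45 (miR-103-3p) and -0.66 (miR-191-3p).

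In GKT_GKGT, where 11.9% of all tested miRNAs were called lower and 11.0% higher, 0 members were called. miR-107-3p (-1.05, -1.11 to -0.996) and miR-425-5p (-0.99, -1.06 to -0.93) lay at the edge, miR-103-3p was at -0.61, miR-191-3p at -0.49 and miR-191-5p at 0.081. The 3 A-first members that passed the filter and the G-first miR-191-3p were below wild type, and miR-191-5p above it, under each of the 4 scalings. miR-425-3p, the A-first member outside the filter, was at -0.23 by total counts and at 0.068 without miR-292-5p in the totals. In Q548A, where 1.78% were called higher and 4.45% lower, 0 members were called. There miR-191-3p, at 0.88 (0.81 to 0.95), exceeded 97.0% of all tested miRNAs, while the other tested members lay between -0.018 and 0.13.

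In K566A 0 members were called, where 47.5% of all tested miRNAs were called higher and 19.6% lower and the median of all was 0.91. Relative to that median the members were at -0.22 (miR-191-5p), -0.60 (miR-103-3p), -0.85 (miR-107-3p), -1.92 (miR-425-5p) and -1.94 (miR-191-3p). Their log2 ratios on the scale of total counts were 0.69, 0.32, 0.060, -1.001 and -1.02 in that order. Those of miR-191-5p, miR-103-3p and miR-107-3p were negative under the other 3 scalings, and those of miR-425-5p and miR-191-3p were then called lower. miR-425-3p, outside the filter, was at -2.48 in K566A (-3.02 to -1.99) and -2.502 in PGKTP_AAAAA (-2.92 to -2.11), and between -0.23 and -0.15 in the other mutants. In K566A and PGKTP_AAAAA its interval lay wholly past 2-fold below wild type under each of the 4 scalings. The median of the 5 tested members was 0.060 in K566A, 0.48 in R792A_C793A, 0.11 in Q548A, -0.61 in GKT_GKGT and -1.53 in PGKTP_AAAAA, beside medians of all tested miRNAs of 0.91, 0.43, 0.069, -0.29 and -0.55 in that order.

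**Figure D3:**
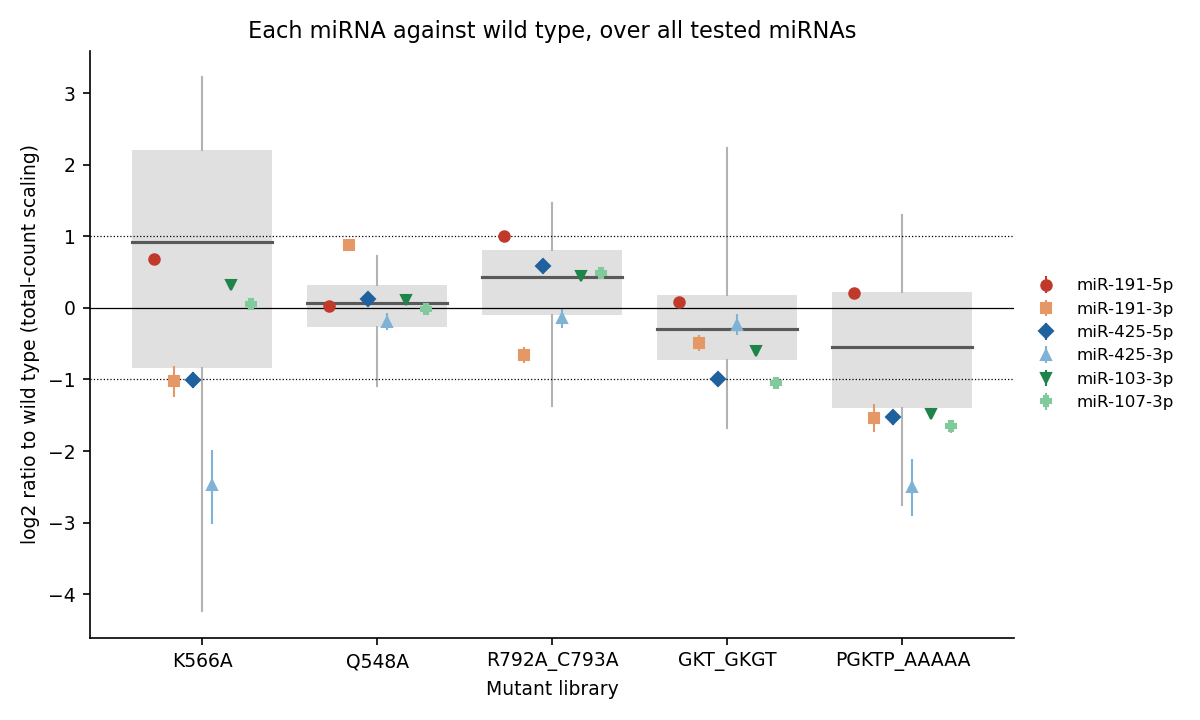
Log2 ratio of each miRNA to wild type in the 5 mutant libraries, scaled by total counts, with exact 95% intervals; grey boxes span the interquartile range of all tested miRNAs, with the median as a line and whiskers out to the 5th and the 95th percentiles. In PGKTP_AAAAA the members lie at -1.48 or below except miR-191-5p at 0.21, and dotted lines mark 2-fold.

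Grouped by the first base of the mature sequence, the members lay near the median of other miRNAs with that base in the alanine-loop library. A RefSeq sequence was matched by name for 277 of the 337 tested miRNAs. In PGKTP_AAAAA, relative to the median of all, the other 52 C-first miRNAs had a median of 0.74 with 10 higher and 8 lower, beside miR-191-5p at 0.76. The other 69 A-first miRNAs had a median of -0.71 with 38 lower and 3 higher, beside miR-103-3p (-0.93), miR-425-5p (-0.98) and miR-107-3p (-1.10). The other 26 G-first miRNAs had a median of -1.11 with 18 lower and 1 higher, beside miR-191-3p at -0.99. The 125 U-first miRNAs, none of them a member, had a median of 0.16 with 34 lower and 3 higher.

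In GKT_GKGT the other C-first miRNAs lay higher as a group, at a median of 1.16 over that of all tested, with 25 of 52 higher and 0 lower, and miR-191-5p lay below them at 0.37. The other A-first miRNAs had a median of -0.32 with 21 of 69 lower and 0 higher, beside miR-103-3p (-0.32), miR-425-5p (-0.70) and miR-107-3p (-0.76). G-first miRNAs had a median of 0.45, and miR-191-3p lay at -0.20. In K566A the medians were 0.079 for C-first, -0.55 for A-first and -1.58 for G-first miRNAs other than the members, beside the relative values given above. In R792A_C793A miR-191-5p, at 0.58, stood above the C-first median of 0.030, and miR-191-3p, at -1.09, below the G-first median of -0.54. In Q548A miR-191-3p, at 0.81, stood above a G-first median of -0.30. These are positions of single miRNAs beside a group's median, not tests.

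**Figure D4:**
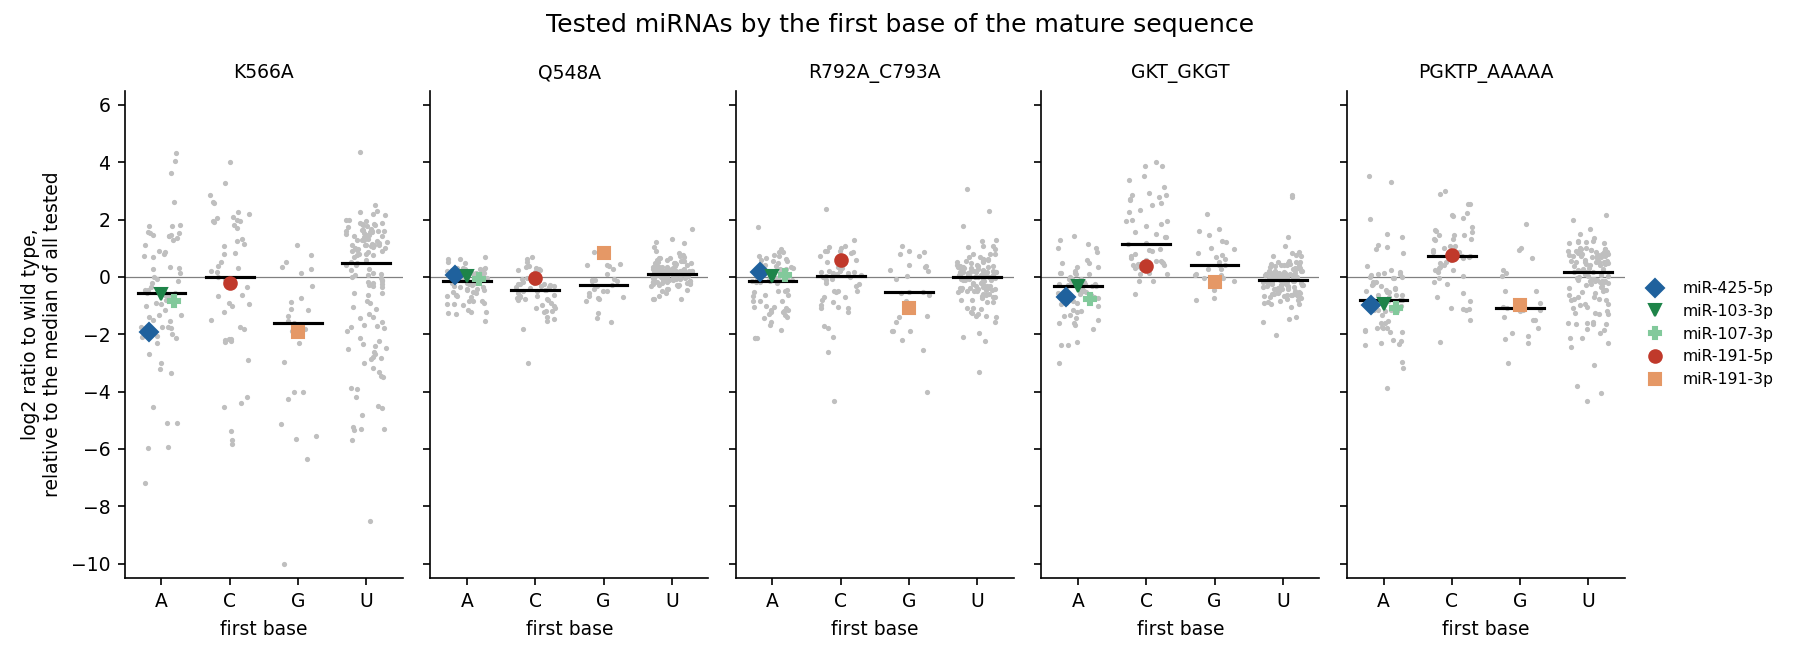
Log2 ratio to wild type, with the median over all tested subtracted, for the 277 tested miRNAs with a sequence, by first base and mutant library; grey points are single miRNAs, black bars group medians and coloured symbols the 5 tested members. In PGKTP_AAAAA the A-first members lie between -1.10 and -0.93, the G-first miR-191-3p at -0.99 and miR-191-5p at 0.76.

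Of 14 other miRNAs in common use as references 13 were found, and all passed the filter. In K566A 6 of the 13 were higher and 2 lower, where 47.5% and 19.6% of all tested miRNAs were. In R792A_C793A 1 was higher and 1 lower (15.7% and 6.82% of all), and in Q548A 1 was higher (1.78% of all). In GKT_GKGT 1 was lower (11.9% of all), and in PGKTP_AAAAA 1 was higher and 3 lower (7.12% and 33.5% of all). Nothing particular to reference miRNAs is read from these counts. Their medians lay from 0.14 below (GKT_GKGT) to 0.18 above (Q548A) the median of all. The one with the highest mean over the 6 Ago2 libraries, miR-423-5p, stood at 19030 CPM in K566A, 8865 in R792A_C793A, 8126 in Q548A, 5201 in GKT_GKGT and 5056 in PGKTP_AAAAA, against 3780 CPM in wild type. It was called higher in the first 3, and miR-25-3p was called higher in K566A (log2 ratio 3.02) and PGKTP_AAAAA (1.03).

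The miRNAs that carry AGCAGC 1 base further in, the miR-15/16 family, were scarce in these pulldowns and did not follow miR-103-3p and miR-107-3p in K566A. No sequence was matched by name for miR-195-5p or miR-497-5p, so the motif was not checked in them. All 6 were found and 3 passed the filter. In K566A, where 47.5% of all tested miRNAs were called higher and the median of all was 0.91, these 3 were called higher, with log2 ratios for miR-497-5p (2.68), miR-16-5p (2.46) and miR-15b-5p (2.03), against log2 ratios of 0.32 for miR-103-3p and 0.060 for miR-107-3p. miR-16-5p and miR-15b-5p begin with U, unlike miR-103-3p and miR-107-3p. In K566A U-first miRNAs had a median log2 ratio of 1.41, with 68 of 125 higher and 28 lower. A-first miRNAs other than the members had a median of 0.37, with 25 of 69 higher and 14 lower. The part of the first base in the difference was not tested. In PGKTP_AAAAA miR-15b-5p was lower (-1.50), miR-16-5p stood at -0.33 and miR-497-5p at 1.004. In Q548A, R792A_C793A and GKT_GKGT 0 of the 3 were called.

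The miRNAs most like each member in their pattern over the 6 Ago2 libraries were found by the root mean square difference in centred log2 CPM, among the 151 other miRNAs that averaged 100 CPM or more. The nearest to miR-103-3p was miR-107-3p, at 0.16, and the reverse also held. Reads that stop before base 22 match both of these miRNAs, and whether they bring the 2 patterns together was not tested. The median miRNA lay at 0.84 from miR-103-3p. The next were miR-340-5p (0.31) and miR-93-5p (0.33) for miR-103-3p, and miR-495-3p (0.397) and miR-93-5p (0.40) for miR-107-3p. Nearest to miR-191-5p were miR-182-5p (0.19), miR-381-3p (0.28) and miR-30c-5p (0.28), against a median of 0.82. miR-182-5p stood at 4418 CPM in K566A, 4452 in R792A_C793A, 3400 in Q548A, 3267 in GKT_GKGT and 3448 in PGKTP_AAAAA, against 3027 CPM in wild type. miR-425-5p, below the level required of candidates, lay at 0.74 from miR-191-5p, with which it is processed, and at 0.43 from miR-107-3p. These are descriptions over 6 libraries that share their scaling.

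The empty control held 33461 counts in all, against 94842507 in wild type, so its CPM gives composition and not the amount recovered. By CPM the abundant members appeared in it at levels like those of wild-type Ago2. miR-191-5p stood at 8041 CPM in wild type and 8189 CPM in the empty control (95% interval 7248 to 9218), where it had 274 counts. miR-103-3p stood at 1289 CPM in wild type and 986 CPM in the empty control (679 to 1385, 33 counts), and miR-107-3p at 136 CPM and 149 CPM (48.5 to 349, 5 counts) in the same libraries. miR-191-3p and both arms of miR-425 had 0 counts in the empty control, which allows up to 89.7 CPM. Levels like those of miR-191-3p (26.0 CPM) and miR-425-3p (12.7 CPM) in wild type were therefore not detectable at this depth. The wild-type level of miR-425-5p, 96.7 CPM, is above that limit and below 110.2 CPM, the upper end of the exact Poisson 95% interval for the same 0 counts, so it was at the edge of what this depth could show.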

How the data were processed

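Small RNAs from 7 anti-Flag pulldowns were counted by the authors, and the deposited table holds raw counts per mature miRNA locus. The submitters' processing notes name CASAVA 1.8.2, TopHat2 2.0.9 and the mm9 build. Which program counted the reads, with which miRNA annotation, by strand or not, and what became of multiply matching reads were all not given in the sources used here. Of 64 names with several loci and counts, 55 had counts equal within 1% or 3 counts at all of them, so each name was counted by its highest locus, and 9 names of 200 or more counts that equalled another to that tolerance were merged with it. Scaling was by the total of these counts. Ratios of levels have exact conditional 95% intervals; odds ratios have exact conditional intervals, or Woolf's where all 4 counts reached 500. A call needs the whole interval past 2-fold. Hairpins needed a sum of 100 over the Ago2 libraries and arms within 150 nt; log2 arm ratios used a pseudocount of 0.5. A count of 0 is read as up to 3 counts. The named miRNAs are the members, the other arms of their hairpins, the 3 nearest in pattern to members of at least 100 CPM, the lists of reference miRNAs, of AGCAGC carriers, of first bases and of markers, and up to 4 abundant list members. The members and lists were chosen with earlier results of these data known, and the hairpin groups by first base after the values were seen. Other scalings (median of ratios, TMM from edgeR 4.0.16, totals without miR-292-5p), no filter, summed loci, a 1.5-fold rule and a pseudocount of 5 were tried. The intervals were tested on simulated counts with counting error alone, so those runs say nothing on the spread between replicate libraries or on scaling. Python 3.11.15 with scipy 1.17.1 was used. RefSeq sequences and GENCODE M21 genes are of build GRCm38, so only their sequences, strands and overlaps were used; positions are mm9 as deposited.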

Additional observations from a re-analysis of the deposited data

How the results depend on the processing

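No paired analysis was possible because each group is 1 library. Of 120 log2 ratios of single members recomputed under 4 settings (the 3 other scalings and summed loci), 104 kept their side of the 2-fold rule, 10 lost the call and 6 gained one. The sign changed in 13, in 7 of them with both intervals clear of 0. Those 7 were in K566A, for miR-191-5p (-0.15 with median-of-ratios scaling, -0.42 without miR-292-5p, -0.28 with TMM) and miR-103-3p (-0.52, -0.79 and -0.66 in that order), and in Q548A for miR-191-5p (-0.066 with median-of-ratios scaling). Median-of-ratios scaling moves every log2 ratio by -0.84 in K566A, -0.36 in R792A_C793A, -0.099 in Q548A, 0.18 in GKT_GKGT and 0.62 in PGKTP_AAAAA. Members called lower in K566A numbered 2 with each of the 3 other scalings and with the 1.5-fold rule, and 1 with no filter, against 0 as reported. Members called lower in PGKTP_AAAAA numbered 0 with median-of-ratios scaling and 2 with TMM, and 5 with no filter, against 4. The call in R792A_C793A fell to 0 with the 3 other scalings and with summed loci. The 1.5-fold rule called 1 member higher in K566A, 1 higher in Q548A and 3 lower in GKT_GKGT. By that rule the arm ratios of miR-191 in Q548A (-0.85) and of miR-425 in K566A (1.46) and GKT_GKGT (-0.76) were also called, as were miR-191-3p over miR-425-3p in K566A (1.46) and Q548A (1.08) and miR-191-5p over miR-103-3p in GKT_GKGT (0.69). Summed loci changed no call on the ratios between members of different hairpins. A pseudocount of 5, tried on the arm ratios, alters the point value and not the interval on which a call rests. The pattern distances do not depend on scaling by construction. Depth limits miR-425-3p, with 34 counts in K566A, and every member in the empty control.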
